A study of Mus musculus with 99 samples.

Results

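Hearts of inbred mouse strains differed widely in the level of Fos, a gene that is switched on within minutes of a stimulus, and the 32 hearts with the most Fos and Egr1 were set against the 32 hearts with the least. The arrays were chosen from the Fos and Egr1 values themselves. For each of 97 arrays the mean of both genes was taken on the log2 scale, the mean of the array's strain group was subtracted, and the resulting score was ranked. The 32 highest arrays are called high-Fos hearts, the 32 lowest low-Fos hearts, and 33 lay between them. Of the 99 arrays of the series, those of the wild-derived strain CAST/EiJ and of B6cC3-1/KccJ were not ranked.

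All hearts came from male mice on chow under a 12-hour light and dark cycle with no treatment. The protocol gives an age of 16 weeks, while the age label runs from 16 to 113 weeks. That label climbs week by week along the order of the samples, and age was not used in the fits. Each strain had 1 Affymetrix HT_MG-430A array of heart RNA, so the errors and p-values given here rest on differences among strains, in which technical noise is included, and the number of arrays limits the precision. High-Fos and low-Fos hearts comprised 10 and 10 classical inbred strains, 10 and 9 BXD strains (from C57BL/6J and DBA/2J), 4 and 4 AXB and 4 and 5 BXA strains (both from C57BL/6J and A/J), and 4 and 4 BXH strains (from C57BL/6J and C3H/HeJ). BXD24/TyJ-Cep290<rd16>/J, a mutant form of BXD24/TyJ, and its parent strain were both low-Fos hearts, as was the mutant BXD29-Tlr4<lps-2J>/J. In the main fit the BXD24 pair and the closely related AXB19 strains counted as separate strains.

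Fos and Egr1 encode transcription factors of the immediate early class. Their promoters are bound before any stimulus by factors such as SRF with its ternary complex partners and CREB, so that kinase signals from growth factors, stretch, calcium or adrenergic receptors start transcription without new protein synthesis. FOS pairs with JUN proteins to form AP-1, and the same wave of transcription makes phosphatases and RNA-decay factors that shut the signal off. In heart muscle these genes are known to respond to pressure load, adrenergic drive and ischaemia, and in any tissue to handling during dissection.

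Promoters of Fos and of 3 genes called below are shown because factors that bind the cyclic AMP response element (CRE) are classical regulators of Fos. Each covers 300 bases, most of them before the RefSeq start of the gene, on build GRCm38.p6, and capitals mark every match on either strand to the CRE (TGACGTCA), to its first bases (TGACG), which lie within it, or to an EGR site (GCGNGGGCG).
Fos, chr12:85473640-85473939, plus strand: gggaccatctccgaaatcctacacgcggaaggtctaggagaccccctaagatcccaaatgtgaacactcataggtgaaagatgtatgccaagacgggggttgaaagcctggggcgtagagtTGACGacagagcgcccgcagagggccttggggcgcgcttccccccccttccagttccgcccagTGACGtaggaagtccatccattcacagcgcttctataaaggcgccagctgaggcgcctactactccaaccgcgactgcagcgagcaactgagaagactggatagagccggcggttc
Dusp1, chr17:26508423-26508722, minus strand: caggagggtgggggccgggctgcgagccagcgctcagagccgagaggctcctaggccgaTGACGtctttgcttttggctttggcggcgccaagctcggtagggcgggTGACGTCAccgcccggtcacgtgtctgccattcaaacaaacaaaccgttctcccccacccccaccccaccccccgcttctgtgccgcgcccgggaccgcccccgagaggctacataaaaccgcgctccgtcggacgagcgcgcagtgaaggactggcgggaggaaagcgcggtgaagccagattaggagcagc
Btg2, chr1:134079106-134079405, minus strand: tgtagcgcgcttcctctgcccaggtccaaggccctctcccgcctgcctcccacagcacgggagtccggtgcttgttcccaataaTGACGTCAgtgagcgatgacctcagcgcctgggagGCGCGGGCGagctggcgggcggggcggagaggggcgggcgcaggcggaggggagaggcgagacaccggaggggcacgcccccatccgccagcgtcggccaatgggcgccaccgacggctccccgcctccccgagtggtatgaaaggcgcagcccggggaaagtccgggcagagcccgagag
Junb, chr8:84978699-84978998, minus strand: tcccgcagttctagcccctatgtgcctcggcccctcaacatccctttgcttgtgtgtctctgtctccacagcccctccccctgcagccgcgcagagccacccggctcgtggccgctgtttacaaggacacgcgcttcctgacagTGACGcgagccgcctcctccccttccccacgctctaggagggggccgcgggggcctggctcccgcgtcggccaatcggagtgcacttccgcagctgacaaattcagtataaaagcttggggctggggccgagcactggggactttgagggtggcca
The Fos window held TGACG starting at -129 and at -66 relative to the start, and the Junb window held it at -106. The full CRE was present in Dusp1 at -143 and in Btg2 at -166, and Btg2 also held an EGR site at -131. Of the 8 genes called below, 6 had a promoter in the RefSeq table: 2 of these held the full CRE, 4 the letters TGACG, 1 the EGR site, and 0 an AP-1 site (TGANTCA) or a CArG box, the SRF motif. Among all 32851 promoters of the same length, 1.79% held the CRE, 20.8% TGACG, 5.55% the EGR site, 7.81% the AP-1 site and 1.63% a CArG box. The Fos window also held no CArG box. These matches describe letters in a window, sites outside it were not searched, and no binding was measured.

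The values that chose the arrays are given as a description. Fos was at 5.40, 7.22 and 9.03 log2 units (lowest, median, highest) in high-Fos hearts, against 3.82, 4.84 and 6.34 in low-Fos hearts. Egr1 was at 5.15, 6.62 and 8.42 in high-Fos hearts, against 4.93, 5.48 and 6.35 in low-Fos hearts. After centring by strain group the means lay 2.34 log2 units apart for Fos, which is 5.07-fold, and 1.23 apart for Egr1, which is 2.35-fold. BXH14/TyJ had the highest score, 2.19, and NZW/LacJ the lowest, -1.76. The scores had no gap at either limit: C57BL/6J was the last high-Fos heart at 0.31 and SWR/J just missed at 0.24, while A/J was just inside the low-Fos hearts at -0.469 and BXH8/TyJ just outside at -0.457.

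**Figure D1:**
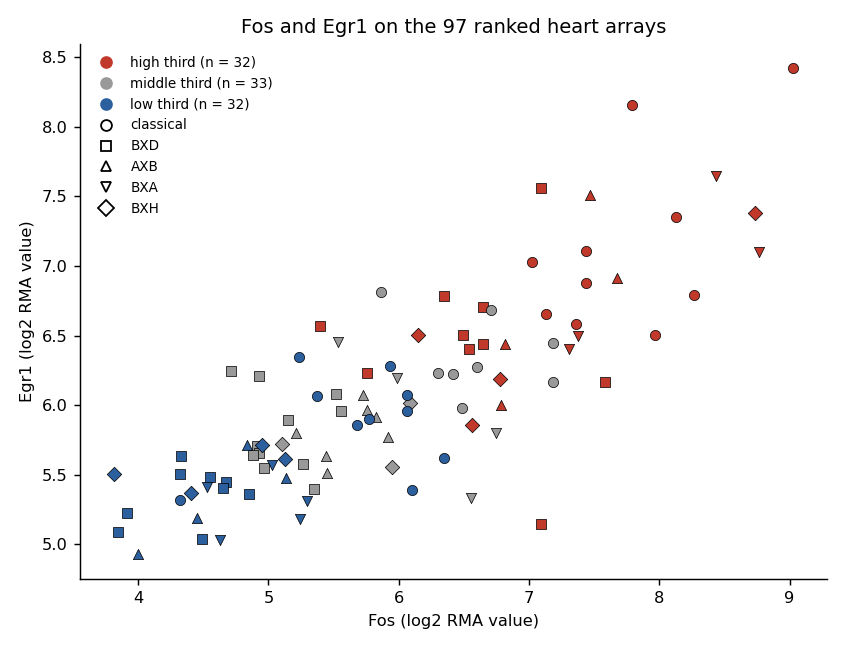
Fos (horizontal axis) against Egr1 (vertical axis), both as log2 RMA values, on the 97 ranked heart arrays, coloured by rank of the score (red high, grey middle, blue low) and with a marker for each strain group. Fos runs from 5.40 to 9.03 in high-Fos hearts and from 3.82 to 6.34 in low-Fos hearts, and colours overlap because the score subtracts the mean of the strain group.

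Beyond the pair that chose the arrays, 8 of 7511 genes tested differed between high-Fos and low-Fos hearts (limma, Benjamini-Hochberg adjusted p under 0.05), which is 0.107% of all genes tested. The 8 were Btg2, Dusp1, Junb, Adamts1, Enc1, Jun, Ier2 and Dusp6, and all were higher in high-Fos hearts. The limma count of lower genes was 0. At an unadjusted p under 0.05, 193 genes (2.57%) were higher and 239 (3.18%) lower, together 5.75%, and 47.0% of all differences lay above 0. Lists of immediate early transcription factors, of feedback inhibitors and of secreted and signalling early genes had 50 tested members between them and held 7 of the 8 called genes. Of these 50 members, 44 differences were above 0, and the median was 0.11 log2 units against -0.0039 over all genes tested. These lists were chosen with earlier results of these data known. In bulk tissue, fewer cells of a type and less RNA per cell cannot be told apart.

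Jun and Junb, whose products pair with FOS, rose, as did Ier2. Jun, the classical partner of FOS in AP-1, was at 7.84, 8.36 and 8.97 log2 units (lowest, median, highest) in high-Fos hearts, against 7.34, 7.995 and 8.46 in low-Fos hearts. The ranges overlapped, with 11 of 32 high-Fos hearts above every low-Fos heart. The difference was 0.37 ± 0.065 (SE, log2), or 1.29-fold, with an adjusted p of 0.000633 in limma. A dimmer Jun probe set gave 0.17 with an adjusted p of 0.485 in limma, so the call rests on 1 of the 2 probe sets. Junb, a JUN protein that forms AP-1 of weaker activity, was dim: it was at 3.62, 4.19 and 5.92 in high-Fos hearts, against 3.41, 3.77 and 4.32 in low-Fos hearts. Its difference was 0.53 ± 0.091 (1.44-fold, limma adjusted p = 0.000383), and 15 high-Fos hearts exceeded every low-Fos heart. The highest Junb values were those of DBA/2J at 5.92, C3H/HeJ at 5.62 and BXD40/TyJ at 5.53, all high-Fos hearts. Ier2, an immediate early nuclear protein, was at 5.57, 6.05 and 6.64 in high-Fos hearts, against 5.23, 5.68 and 6.08 in low-Fos hearts. It rose by 0.37 ± 0.053 (1.29-fold, limma adjusted p = 8.54e-06), with 15 high-Fos hearts above the low-Fos range.

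Other AP-1 and early factors did not pass the test. Of the list of 24 immediate early transcription factors, which leaves out Fos and Egr1, 23 were on the array and 16 were bright enough to be tested; 14 of these lay above 0 and 3 were called. The values of the next genes were chosen after they were seen. Jund, the JUN protein known for steady rather than induced expression, differed by -0.010 ± 0.057 and Fosl2, a FOS relative, by 0.010 ± 0.041. Nr4a1, an orphan nuclear receptor of the same early wave, ran from 5.99 to 9.35 in high-Fos hearts, against 5.25 to 9.22 in low-Fos hearts, and its difference of 0.73 ± 0.24 had an adjusted p of 0.472 in limma. That is a larger difference than that of Junb, with a wider spread within both groups. Klf2, a flow-responsive factor of endothelial cells, came closest to a call: it differed by 0.49 ± 0.12 (1.40-fold), with a limma adjusted p of 0.0719. Atf3, a stress-induced factor, differed by 0.38 ± 0.22, but its highest value, 7.79, was in a low-Fos heart. Fosb, Fosl1, Egr2, Egr3, Nr4a3, Ier5 and Arc were below the filter on dim genes at 3.59 log2 units and were not tested.

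**Figure D2:**
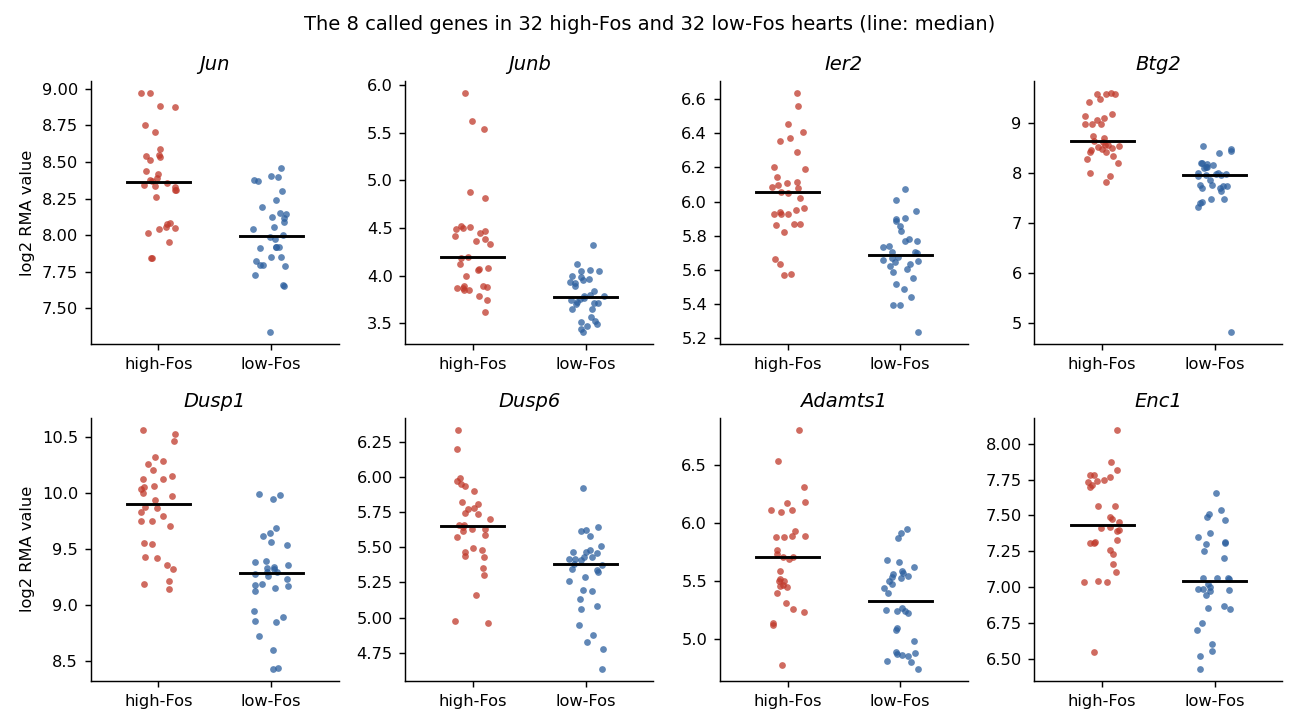
Log2 RMA values (vertical axes, not starting at 0) of the 8 called genes in 32 high-Fos hearts (red, left) and 32 low-Fos hearts (blue, right), 1 point per strain, with a line at the median. In each of the 8 panels the median is higher in high-Fos hearts and the ranges overlap; the single low point for Btg2 is NZB/BlNJ at 4.82.

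The feedback inhibitors held the largest difference of the comparison. Btg2, an anti-proliferative protein that recruits the deadenylase complex to messenger RNA, was at 7.83, 8.64 and 9.61 log2 units in high-Fos hearts, against 4.82, 7.97 and 8.54 in low-Fos hearts. Among high-Fos hearts, 20 of 32 exceeded every low-Fos heart. The difference of 0.94 ± 0.14 (1.92-fold, limma adjusted p = 8.54e-06) was the largest of all genes tested. The NZB/BlNJ value of 4.82 stood far below the next lowest array of the 97, at 6.31. On the other Btg2 probe set NZB/BlNJ was at 7.11, with 47 arrays below it, and that probe set differed by 0.87 ± 0.11. Without NZB/BlNJ, Btg2 differed by 0.84 ± 0.10, with a limma adjusted p of 5.89e-08, and the same 8 genes were called.

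Dusp1 and Dusp6 encode phosphatases that take phosphate off MAP kinases; Dusp1 is nuclear and Dusp6 prefers ERK in the cytoplasm. Dusp1 was at 9.14, 9.91 and 10.57 in high-Fos hearts, against 8.43, 9.29 and 9.99 in low-Fos hearts. It had the smallest adjusted p of the comparison, 1.24e-07 in limma, with a difference of 0.63 ± 0.078 (1.55-fold). After centring by strain group, 31 of 32 high-Fos hearts lay above the low-Fos median for Dusp1, as for Btg2. Dusp6 was at 4.96, 5.65 and 6.33 in high-Fos hearts, against 4.63, 5.38 and 5.92 in low-Fos hearts. Its groups overlapped more, with 6 high-Fos hearts above the low-Fos range, and it rose by 0.34 ± 0.069 (1.26-fold, limma adjusted p = 0.0083).

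Of 28 feedback inhibitors listed, 25 were on the array, 22 were tested, 20 had differences above 0, 3 were called and 8 had an unadjusted p under 0.05, all in the direction of high-Fos hearts. The following members missed the call and were chosen after their values were seen. Socs3, which blocks cytokine receptor signalling, ranged from 3.51 to 6.68 in high-Fos hearts, against 3.61 to 4.41 in low-Fos hearts: 13 high-Fos hearts lay above the low-Fos range, the difference was 0.44 ± 0.13, and the limma adjusted p was 0.371. Errfi1, an inhibitor of EGF receptors, differed by 0.41 ± 0.12 and Cdkn1a, a cell cycle inhibitor, by 0.48 ± 0.22. Nfkbia, which holds NF-kappaB in the cytoplasm, differed by 0.30 ± 0.11. The Sprouty gene Spry2, a feedback inhibitor of ERK signalling, differed by only 0.0069 ± 0.059 and Gadd45b, a stress sensor, by -0.12 ± 0.094. The ERK MAP kinase pathway itself, by its 13 tested members, had a median of 0.023 with 7 members above 0 and 0 called.

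Among secreted and signalling early genes, 12 of 17 on the array were tested, 10 lay above 0, and 1, Adamts1, was called. Adamts1 encodes a secreted protease of the extracellular matrix. It was at 4.78, 5.71 and 6.80 in high-Fos hearts, against 4.75, 5.33 and 5.95 in low-Fos hearts. Its difference of 0.41 ± 0.094 (1.33-fold) had an adjusted p of 0.0443 in limma, the weakest of the 8 calls, and it missed the threshold in 8 of 13 other settings. Ccl2, a monocyte chemokine, differed by 0.47 ± 0.17 and was near the floor in most hearts, with medians of 3.48 in high-Fos and 3.36 in low-Fos hearts. Ccn1, a matrix signalling protein, differed by 0.22 ± 0.10, and Plk2, a kinase, by -0.20 ± 0.078. None of these 3, chosen after their values were seen, was called.

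Enc1, an actin-binding kelch protein that belongs to none of the lists, was the remaining call. It was at 6.55, 7.43 and 8.10 in high-Fos hearts, against 6.43, 7.04 and 7.66 in low-Fos hearts. The difference was 0.39 ± 0.075 (1.31-fold, limma adjusted p = 0.00272), and 11 high-Fos hearts lay above the low-Fos range. Another Enc1 probe set gave 0.24 with an adjusted p of 0.445 in limma.

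The 8 differences were also read within each strain group, where between 4 and 10 high-Fos hearts faced between 4 and 10 low-Fos hearts. AXB and BXA were pooled. All 32 differences (8 genes in 4 groups) were above 0, where the share among all genes was 52.0% in classical strains, 45.4% in BXD, 44.6% for AXB with BXA and 49.2% in BXH. Of the 32, 26 had an unadjusted p under 0.05 in limma: 7 genes in classical strains, 7 in BXD, 7 for AXB with BXA, and 5 in BXH. The share of all genes with such a p in the higher direction was 6.02% in classical strains, 1.44% in BXD, 2.41% for AXB with BXA and 4.05% in BXH. These groups are parts of the arrays that gave the calls, so they are no independent sample. The low-Fos BXH hearts were all among the arrays flagged below for transcripts of another organ, and the part of this in the BXH differences was not tested. Dusp1 differed by 0.60 ± 0.16 (SE) in classical strains, 0.47 ± 0.14 in BXD, 0.78 ± 0.089 for AXB with BXA and 0.81 ± 0.22 in BXH. Junb differed by 0.75 ± 0.19 in classical strains, 0.52 ± 0.18 in BXD, 0.32 ± 0.099 for AXB with BXA and 0.42 ± 0.20 in BXH. Adamts1 varied most in size, at 0.61 ± 0.14 in classical strains and 0.028 ± 0.27 in BXH. For the 8 genes, the limma test of the difference between strain groups gave unadjusted p-values from 0.125 to 0.773, so no such difference was shown; 1 of all genes (0.0133%) was called by that test. With adjustment over all genes within a strain group, Dusp1 was the only one of the 32 to pass, for AXB with BXA, with an adjusted p of 0.000521 in limma. It was also the only gene called there (0.0133%), as Pttg1, named after its values were seen, was in BXH (0.0133%), and 0 genes were called in classical strains or in BXD, where limma gave 743 and 257 genes at an unadjusted p under 0.05.

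**Figure D3:**
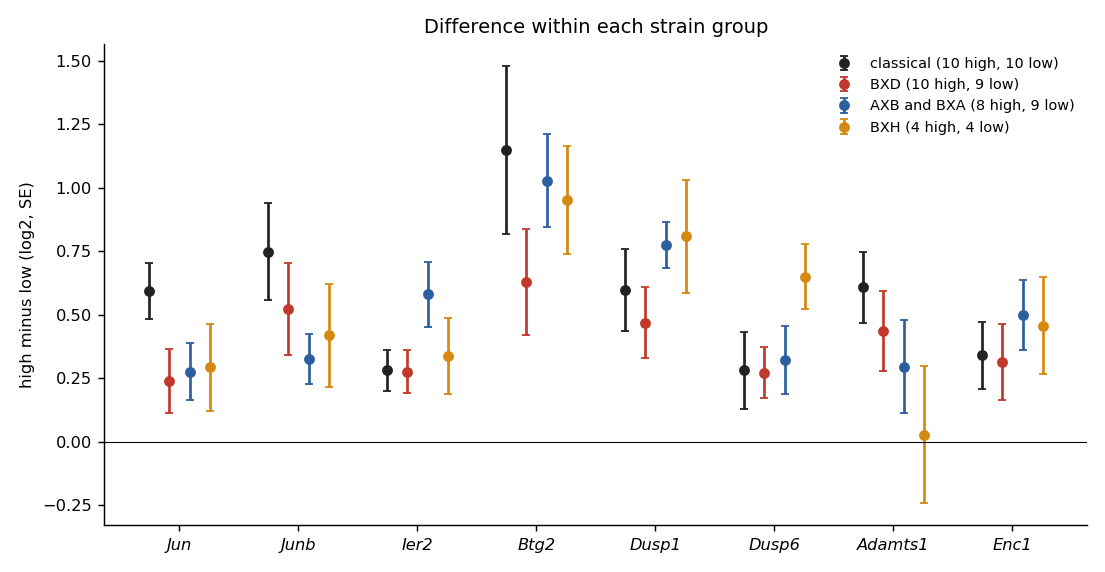
Difference of high-Fos minus low-Fos hearts (vertical axis, log2, bars show 1 SE) for the 8 called genes within each of 4 strain groups, with the number of arrays in the legend. All 32 points lie above 0, the lowest being Adamts1 in BXH at 0.028. The low-Fos BXH hearts were all flagged for transcripts of another organ.

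The closely related AXB19 strains did not share a rank. AXB19/PgnJ and AXB19a/PgnJ were high-Fos hearts, with scores of 1.45 and 0.55, and AXB19b/PgnJ a low-Fos heart at -1.02. Btg2 was at 9.43 and 8.43 in the first pair, against 7.48 in AXB19b/PgnJ, and Dusp1 at 9.75 and 10.05, against 9.16. Ier2 did not follow: it was at 6.56 and 5.57, against 5.66 in AXB19b/PgnJ. Single arrays give no error for these values.

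The 33 arrays between the groups were not among those compared, though they entered the strain group means used for centring and for the score. They were used to ask whether the called genes followed the score there too. Their scores ran only from -0.46 to 0.24. Fitted as a slope per unit of score in limma, 0 of 7511 genes were called (0%), while 433 had an unadjusted p under 0.05. All 8 called genes had slopes above 0, as did 52.5% of all genes, and 2 had an unadjusted p under 0.05 in that direction, a share that was 3.65% among all genes. Those 2 were Dusp1, with a slope of 1.02 ± 0.32 (SE, log2 per unit of score; p = 0.00302), and Jun, with 0.76 ± 0.21 (p = 0.00118). Btg2 and Junb had slopes of 0.021 and 0.077 there. Among the 50 members of the early lists, 36 slopes were above 0. After centring, Btg2 averaged 0.54 in high-Fos hearts and -0.14 in the middle arrays, against -0.40 in low-Fos hearts, and Dusp1 averaged 0.39 and -0.14, against -0.24.

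**Figure D4:**
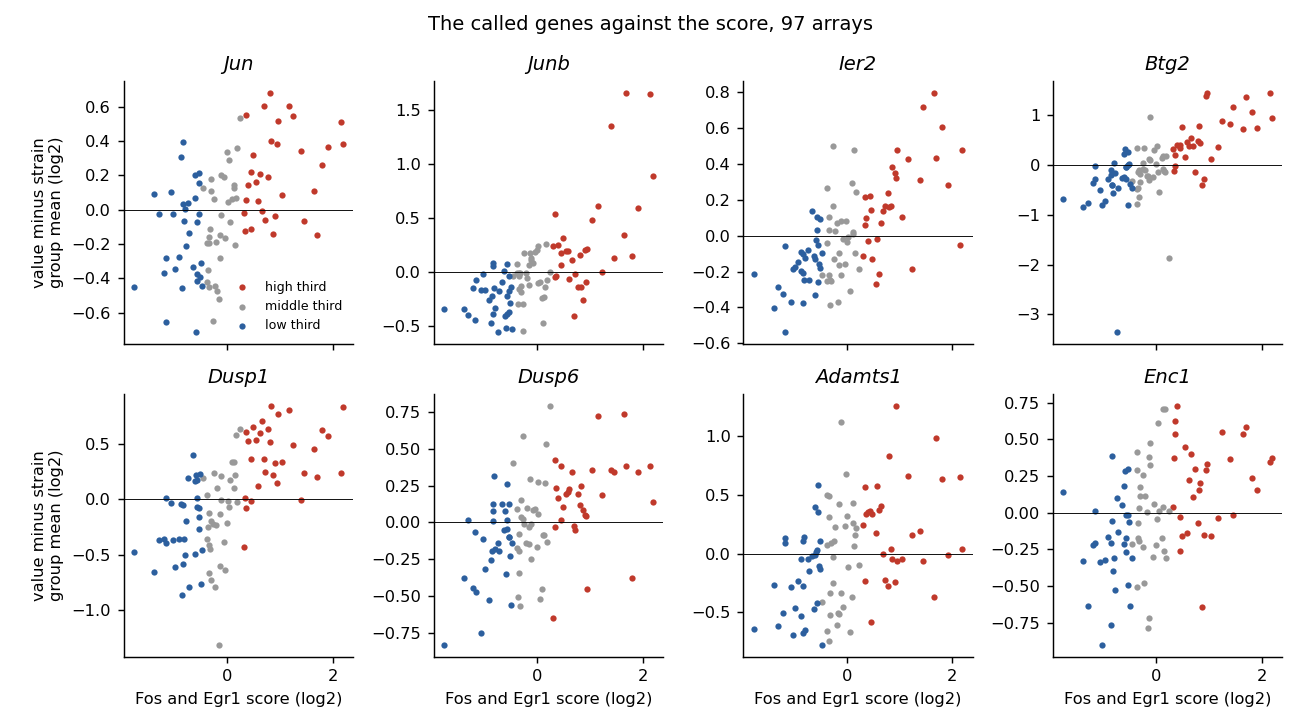
Values of the 8 called genes after subtraction of the strain group mean (vertical axes, log2) against the Fos and Egr1 score (horizontal axes, log2) on 97 arrays, with high-Fos hearts in red, middle arrays in grey and low-Fos hearts in blue. For Junb the points spread upward mainly at high scores, and the low Btg2 point is NZB/BlNJ.

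No member of the other gene lists passed the test except Dusp1, which also stands among the CREB targets. The values of these lists are given as counts and medians. Of 7 tested CREB targets, some of them also members of the early lists, 6 lay above 0. Among these CREB targets 2 had an unadjusted p under 0.05 in limma, and the median was 0.11. Of 16 tested glucocorticoid-responsive genes, 15 lay above 0, 6 had an unadjusted p under 0.05 and the median was 0.18. Its members Ddit4, an inhibitor of mTOR signalling, differed by 0.51 ± 0.20, Cebpd, an acute-phase transcription factor, by 0.43 ± 0.12, and Sgk1, a kinase induced by steroids, by 0.35 ± 0.11. Fkbp5, a classical glucocorticoid target, differed by 0.095 ± 0.19 and Per1 by -0.028 ± 0.093. All 10 cytosolic heat shock genes lay above 0, with a median of 0.088. The inducible chaperone gene Hspa1b differed by 0.38 ± 0.17 and the co-chaperone gene Dnajb1 by 0.34 ± 0.12. Of 12 unfolded protein response genes, 11 lay above 0, with a median of 0.073, among them Atf4, the effector of the integrated stress response, at 0.20 ± 0.063. The members named in these lists were chosen after their values were seen.

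The 14 tested circadian clock genes had a median of -0.10, with 4 above 0 and 3 below 0 at an unadjusted p under 0.05. Dbp, an output gene of the clock with a strong daily rhythm, was at 3.92, 5.52 and 8.18 in high-Fos hearts, against 3.93, 6.66 and 8.16 in low-Fos hearts. Its difference of -0.77 ± 0.29 was the lowest of all genes tested, yet both groups spanned nearly the same range and the limma adjusted p was 0.657. Per3 differed by -0.27 ± 0.15, Nr1d2 by -0.20 ± 0.080 and Arntl, which peaks in the opposite phase to Dbp, by 0.20 ± 0.15. The sources used here do not give the time of dissection, and its part in the result was not tested.

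Genes of heart muscle and its metabolism lay near 0. The 29 tested oxidative phosphorylation genes ranged from -0.041 to 0.023 with a median of -0.0068, and the 18 fatty acid oxidation genes had a median of -0.0094. All 12 glycolysis genes were below 0, between -0.11 and -0.013. Among 11 cardiac wall stress genes the median was 0.031: the natriuretic peptide genes Nppa and Nppb differed by -0.027 ± 0.061 and 0.043 ± 0.12, and Rcan1, a calcineurin target and inhibitor, by 0.28 ± 0.12. The 10 tested cytoskeletal targets of SRF lay mostly above 0, with 9 above 0, a median of 0.078 and 0 called. The 10 hypoxia genes had a median of -0.0023 with 5 above 0, and the 12 interferon response genes 0.0012 with 6 above 0. Of 7 NF-kappaB inflammation genes 4 lay above 0, and of 12 cytosolic ribosomal protein genes 8.

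**Figure D5:**
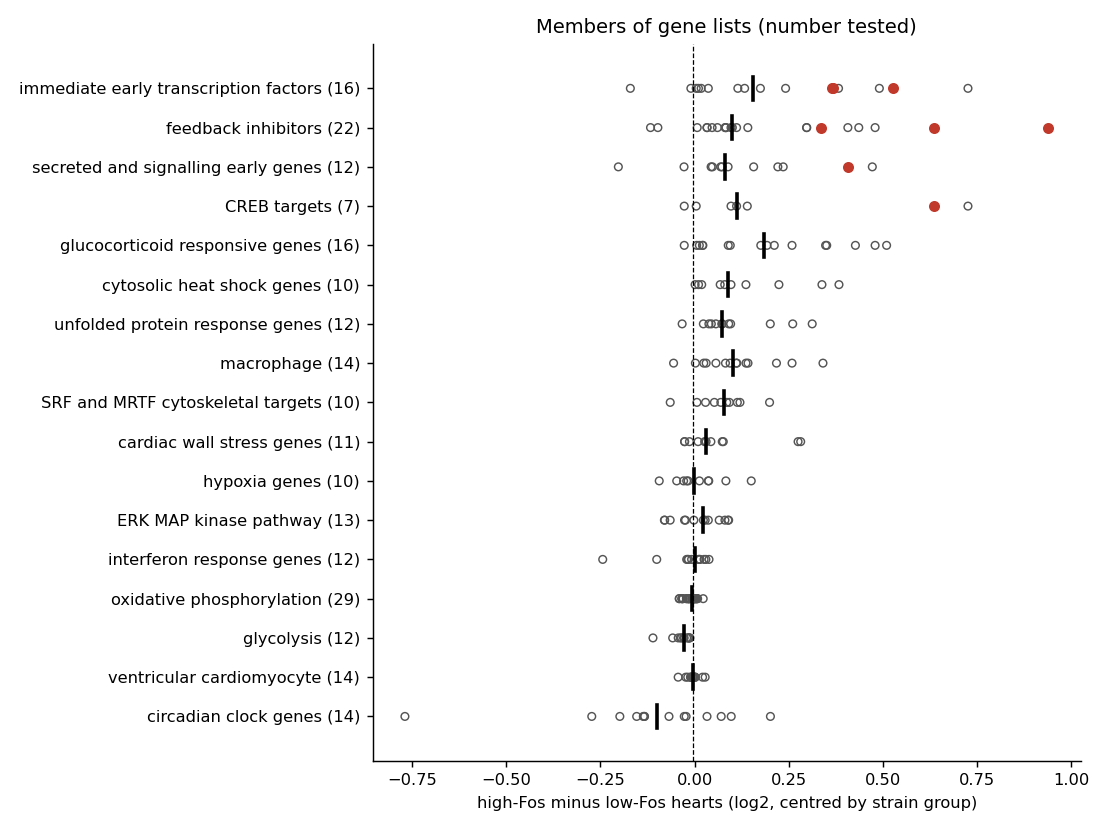
Difference of high-Fos minus low-Fos hearts (horizontal axis, log2, centred by strain group) for the tested members of 17 gene lists, with filled red points for called genes, open points for the others, a black bar at each list's median and a dashed line at the median of all 7511 genes, -0.0039. The immediate early list has a median of 0.15, the feedback list 0.098 and the clock list -0.10.

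Markers of the cells and tissue in the samples were set beside these results. The ventricular cardiomyocyte markers (Tnni3, Tnnt2, Myl2 and others, 14 tested) averaged from 12.58 to 12.78 log2 units in high-Fos hearts, against 12.58 to 12.76 in low-Fos hearts, so the labelled tissue carried its markers on every array. Macrophage markers averaged from 5.18 to 6.73 in high-Fos hearts, against 4.97 to 6.59 in low-Fos hearts, and 13 of 14 had differences above 0, with a median of 0.10 and 0 called. The general macrophage markers Csf1r and Adgre1 differed by 0.024 ± 0.054 and -0.056 ± 0.080, and Cd14, which macrophages also induce, by 0.34 ± 0.11. Adgre1 was the only member of the list below 0 and Cd14 had the highest difference, so these genes do not stand for the whole list. Endothelial markers had a median of 0.036, with 11 of 13 above 0, and fibroblast markers 0.044, with 9 of 10. Their part in the result was not tested. Erythroid, lymphocyte, adipocyte, brown fat and atrial lists also had 0 called members. All 5 tested adipocyte markers lay above 0, with a median of 0.034 and a highest difference of 0.53. Of 4 tested brown fat markers 3 lay above 0, with a median of 0.072 and a highest difference of 0.77. Erythroid and atrial markers had medians of -0.071 and -0.027. The adipocyte and brown fat lists were not used to flag arrays for other organs.

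Transcripts of neighbouring organs were present on some arrays, judged by marker lists whose mean exceeded its median over the arrays by more than 2 log2 units. Such arrays numbered 12 of 32 among high-Fos hearts and 16 of 32 among low-Fos hearts, mostly for lung and airway markers, with 10 high-Fos and 11 low-Fos hearts. Without them, 20 high-Fos and 16 low-Fos hearts remained and 3 genes were called (0.0399%): Btg2 at 0.68 ± 0.13, Dusp1 at 0.51 ± 0.10 and Ier2 at 0.34 ± 0.066, with limma adjusted p-values of 0.0352, 0.0468 and 0.0352. The other 5 differences were 0.23 for Dusp6, 0.33 for Jun, 0.36 for Adamts1, 0.36 for Enc1 and 0.47 for Junb, each with the same sign and not called. Over all arrays of each group, the mean of the lung and airway list had a median of 3.52 in high-Fos hearts, against 4.82 in low-Fos hearts. Its averages were 4.99 and 5.05. Liver transcripts reached high levels on single arrays of both groups, with Alb up to 11.22 in high-Fos and 11.89 in low-Fos hearts. The 6 tested liver markers had a median difference of 0.33 and a highest of 0.73, with 5 above 0 and 0 called. For the 6 lung and airway markers the median was -0.069, with 2 above 0. RNA quality, read from Gapdh control probe sets as the 3' value minus the 5' value, averaged -0.30 ± 0.11 in high-Fos and -0.30 ± 0.09 in low-Fos hearts (SD, n = 32 each), and that of actin 1.98 ± 0.25 and 2.02 ± 0.24.

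The calls of single genes varied with the score that ranked the arrays. Ranking by Fos alone called 7 genes (0.0932%), with Nr4a1 added at 0.93 ± 0.21 (limma adjusted p = 0.0393). Ranking by Egr1 alone called 5 (0.0666%): Btg2, Dusp6, Ier2 and Junb rose, and Pdrg1, a gene whose product is tied to a chaperone complex, fell by 0.26 on the log2 scale. With the score as a continuous measure over all 97 arrays, 12 genes were called (0.160%), the 8 and Ccnl1, Cebpg, Socs3 and Stat3, of which Stat3 and Socs3 are an activator and an inhibitor of the same cytokine pathway. The genes these scores added were named after their values were seen. Btg2 and Ier2 were called in 13 of 13 settings that used arrays of more than 1 strain group.

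On all probe sets with 1 gene symbol, 9 of 10873 were called (0.0828%), among them a dim probe set of Hspa8, the constitutive cytosolic chaperone. It was at 3.92, 4.98 and 7.15 in high-Fos hearts, against 3.52, 4.21 and 4.97 in low-Fos hearts, a difference of 0.98 ± 0.15 with a limma adjusted p of 4.85e-05. The other 3 Hspa8 probe sets differed by 0.019, 0.030 and -0.017. Without the filter on dim genes, Ptx3, a secreted pattern recognition protein made by vessels and macrophages, was called: it was at 3.29, 3.57 and 4.71 in high-Fos hearts, against 3.11, 3.39 and 3.53 in low-Fos hearts, and 19 high-Fos hearts lay above the low-Fos range (0.31 ± 0.063, limma adjusted p = 0.0108). Both were named after their values were seen.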

How the data were processed

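The deposited values are log2 signals for 22416 probe sets, including 89 controls. GCOS and RMA are named, with no version, in the submitters' processing notes. RMA subtracts background, gives all arrays 1 distribution and summarises the probes of a set in log2 units. No scanner files were used here, so signal over background is unknown. The values ran from 2.40 to 13.695 and the array medians from 3.97 to 4.07.

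Probe sets with 1 gene symbol in the platform annotation (17783) were used, and the brightest stood for each of 11725 genes. Dim genes, with a mean at or under the 40th percentile of probe sets (3.59 log2 units), were dropped, leaving 7513, or 7511 without Fos and Egr1. Each gene was centred on its strain group mean over the 97 arrays. High-Fos and low-Fos hearts were fitted in limma 3.58.1 (lmFit and eBayes, no covariates, R 4.3.3), with Benjamini-Hochberg adjustment over all genes tested. The middle arrays were fitted with the score as a slope, and the interaction of rank and strain group on uncentred values with strain group in the model. Levels are uncentred log2 values and differences centred ones, high-Fos minus low-Fos. The fits were tested on simulated data. Of 488 entries in 35 gene lists, 411 were on the array and 348 passed the filter.

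Named genes were the called genes, up to 15 in each direction, called list members and the 5 genes of smallest adjusted p for the interaction; others are said to be chosen after their values were seen, as are list members that were not called. The members and lists were chosen with earlier results of these data known. Alternatives changed the score, the centring, the filter, the probe sets and the covariates, left out arrays or used 1 strain group at a time. Promoters came from a RefSeq table on GRCm38.p6, with coordinates of that build. Python 3.11.15 with numpy 2.4.6, pandas 2.3.3 and matplotlib 3.10.9 was also used.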

Additional observations from a re-analysis of the deposited data

Results flagged for a closer look

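The size of the difference between high-Fos and low-Fos hearts varied with strain group for 1 of 7511 genes (0.0133%), Arap3, which encodes a GTPase-activating protein (limma interaction test, adjusted p = 0.0338, while 736 genes had an unadjusted p under 0.05). Arap3 differed by 0.38 ± 0.12 (SE, log2) in classical strains, by -0.078 ± 0.11 in BXD, by 0.16 ± 0.11 in AXB and BXA and by -0.81 ± 0.16 in BXH, where 4 high-Fos hearts averaged 4.73 and 4 low-Fos hearts 5.54. Over all strain groups together its difference was 0.037 ± 0.074. The low-Fos BXH hearts were all flagged for transcripts of another organ, and the part of this in the BXH value was not tested. The next 4 genes by adjusted p, Cr1l, Lyar, Tnpo3 and Ablim1, were not called.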

How the results depend on the processing

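Against the 8 genes called, Egr1 alone as the score gave 5, and leaving out arrays with transcripts of another organ gave 3. Fits within 1 strain group gave 0 in classical strains (743 genes at an unadjusted p under 0.05), 0 in BXD (257), 1 in AXB and BXA (Dusp1) and 1 in BXH (Pttg1, securin, at -3.60). Other than that with Egr1 alone, these fits hold fewer arrays. The Pttg1 value set 4 high-Fos against 4 low-Fos BXH hearts, and Pttg1 was called in no other setting. Without arrays of another organ each of the 8 differences was also smaller, such as Btg2 at 0.68 against 0.94 and Dusp6 at 0.23 against 0.34. The cause of the lower counts was not tested. The remaining settings gave between 6 and 12. The count of 6 came with the closely related AXB19 strains averaged, and likewise the BXD24 pair. Adamts1 and Dusp6 then missed the threshold, with limma adjusted p-values of 0.0766 and 0.0550. The setting without NZB/BlNJ was chosen after seeing the data. Of 103 gene differences in settings that span strain groups, 86 stayed on the same side of the threshold, 17 lost the call and 0 reversed. Within single strain groups 31 of 32 lost it and 0 reversed. The middle arrays gave 0 called genes in each of 4 settings and the interaction 1 in each of 3. The fit of the interaction without arrays of another organ left out BXH, which then had no low-Fos heart. That fit cannot bear on the difference of Arap3 in BXH. No paired analysis was possible because the labels give no shared replicate numbers. Junb was too dim for the filter at the 60th percentile. With 1 array per strain, strain and array effects cannot be told apart, and low values, near 3 on the log2 scale, lie at the array's floor.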

Other observations

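The 2 arrays that were not ranked lay at different ends of the range. B6cC3-1/KccJ had Fos at 8.95 log2 units, above 96 of the 97 ranked arrays, and Egr1 at 7.89, above 95. Of the called genes, it exceeded 95 arrays for Ier2, 94 for Dusp1 and for Junb, 93 for Btg2, 92 for Jun and for Dusp6, 87 for Adamts1 and 66 for Enc1. CAST/EiJ had Fos at 4.82, above 16 of the 97, and Egr1 at 5.59, above 27. Its called genes did not share that place: Jun at 7.62 exceeded 5 arrays and Junb at 3.74 exceeded 19, but Btg2 at 9.23 exceeded 91, Enc1 at 7.62 exceeded 79 and Dusp6 and Ier2 each exceeded 77. Probes on these arrays were designed on another strain's sequence, and the part of sequence differences in the CAST/EiJ values was not tested.

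Among genes that belong to no list, Hdac11, a histone deacetylase, and Gstm5, a glutathione transferase, came closest to a call in the lower direction, both with an adjusted p of 0.18 in limma. Hdac11 differed by -0.24 ± 0.062 (SE, log2), Gstm5 by -0.20 ± 0.053 and Kcnh2, the potassium channel of the rapid delayed rectifier current, by -0.27 ± 0.080. In the higher direction, Timp1, an inhibitor of matrix metalloproteases, differed by 0.54 ± 0.17 and Sdc4, a syndecan, by 0.35 ± 0.10. These 5 genes were chosen after their values were seen, and none was called.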
